A study of Mus musculus with 14 samples.

Results

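The 40 genes described here encode chaperones, disulfide enzymes, degradation factors and entry and export machinery of the endoplasmic reticulum (ER), together with the sensors and transcription factors of the unfolded protein response. They were chosen by name and matched to the probe sets that the array annotation pairs with that symbol alone. All 40 were found among the 19938 genes tested. The RNA came from plantaris muscle, in the calf, of male C57BL/6J mice 25 months old, all of the same strain and with no transgene or drug in the labels. The plantaris was overloaded by synergist ablation, an operation that takes out the gastrocnemius and soleus so that the plantaris carries their load. The groups are days 0, 1, 3, 5, 7, 10 and 14 of overload, each with 2 Affymetrix Mouse Gene 1.0 ST arrays, on which left and right muscles of 6 animals were pooled separately. The left and right pools were taken to be muscles of the same mice. P-values therefore reflect the variation of sides and arrays only, and day cannot be told apart from the animals of that day. The labels give the same treatment text for day 0 as for the other days and name no sham operation, so the effects of surgery and of load cannot be told apart.

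Proteins that are secreted or placed in membranes enter the ER through the Sec61 channel, fold there with chaperones such as BiP, receive disulfide bonds from protein disulfide isomerases, and leave in vesicles coated with COPII. Proteins that fail to fold are taken back to the cytosol and degraded, a route called ERAD. When unfolded protein builds up, the sensors IRE1, PERK and ATF6 start the unfolded protein response: IRE1 splices the Xbp1 message, ATF6 is cut to release a transcription factor, and PERK phosphorylates eIF2, which lowers most translation but favours that of ATF4. ATF4 is also reached through other eIF2 kinases, in what is called the integrated stress response. Skeletal muscle fibres hold a modest rough ER beside a large sarcoplasmic reticulum, whereas fibroblasts and plasma cells are rich in rough ER.

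Values are log2 signals. A difference is the mean of a day's 2 arrays minus the mean of the day 0 arrays, given with its standard error from a limma model over all 14 arrays, and called at an adjusted p under 0.05. Signals are compared for the same gene across days and never between genes. Across genes, left and right arrays of the same day had correlations of 0.994 to 0.997, and with 2 arrays per day the precision is limited. Right and left differed in 0 of the 40 genes and 0 of all genes by limma, with 6 of the 40 and 2092 of all at an unadjusted p under 0.05, and with 0 and 5 called under an intensity trend. Markers of the labelled tissue were present, and on day 0 all 15 skeletal muscle fibre genes lay above the 25th percentile of mean signals, which was 6.99. The cell types changed with the days too. Summed linear signal of the fibre genes lay between 0.531 and 0.658 of its day 0 mean on day 5, and that of 15 macrophage genes stood at 6.15 to 6.38 times day 0 on day 3. In bulk RNA, fewer cells of a type and less RNA per cell cannot be told apart. The median difference of all genes moved from 0.04 on day 1 to -0.14 on day 7, and the members' medians below stand beside it.

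Most of the 40 genes rose at the first sampled day and came partly back. On day 1, 34 rose and 1 fell, against 22.3% of all genes called higher and 22.6% called lower. The median of the 40 was 1.05 on day 1, 0.74 on day 3, 0.55 on day 5, 0.56 on day 7, 0.32 on day 10 and 0.31 on day 14. The counts higher and lower were 35 and 2 on day 3 (all genes 24.1% and 26.6%), 30 and 6 on day 5 (26.4% and 33.7%), and 30 and 7 on day 7 (26.6% and 36.3%). They were 25 and 7 on day 10 (25.9% and 34.3%) and 24 and 6 on day 14 (22.9% and 30.5%). With equal array medians the counts were 20 and 9 on both of these days. With the all-gene median set to 0 they were 28 and 7 on day 10, where Ern1, Ero1a and Sel1l were gained, and 28 and 5 on day 14, where Ern1, Dnajc3, Derl2 and Sec61b were gained and the fall of Ddit3 was lost. Rises of at least 2-fold numbered 21 on day 1 and 6 on day 14, where 4.92% and 6.06% of all genes had one. The genes called higher on all 6 days numbered 21. Of these, Xbp1, Hspa5, Canx, Derl1, Syvn1 and Sec23b each lost a call under equal array medians. The genes called lower on any day numbered 8: Creb3l2, Atf4, Atf5, Ddit3, Ppp1r15a, Chac1, Dnajb9 and Herpud1. The share of all genes was not counted for either, so neither number can be set against a background. A moderated F test over all days called 40 of the 40, beside 79.5% of all genes. The largest difference of a gene fell on day 1 for 19 genes, on day 3 for 10, on day 5 for 1, on day 7 for 3 and on day 10 for 7. The gene lower on day 1, Creb3l2, was not called without the day 0 left or the day 1 left array (adjusted p = 0.0944 to 0.158). The 2 falls on day 3, of Chac1 and Herpud1, numbered 0 or 1 when the day 0 right array or any one array of days 3, 7 or 14 was left out.

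**Figure D1:**
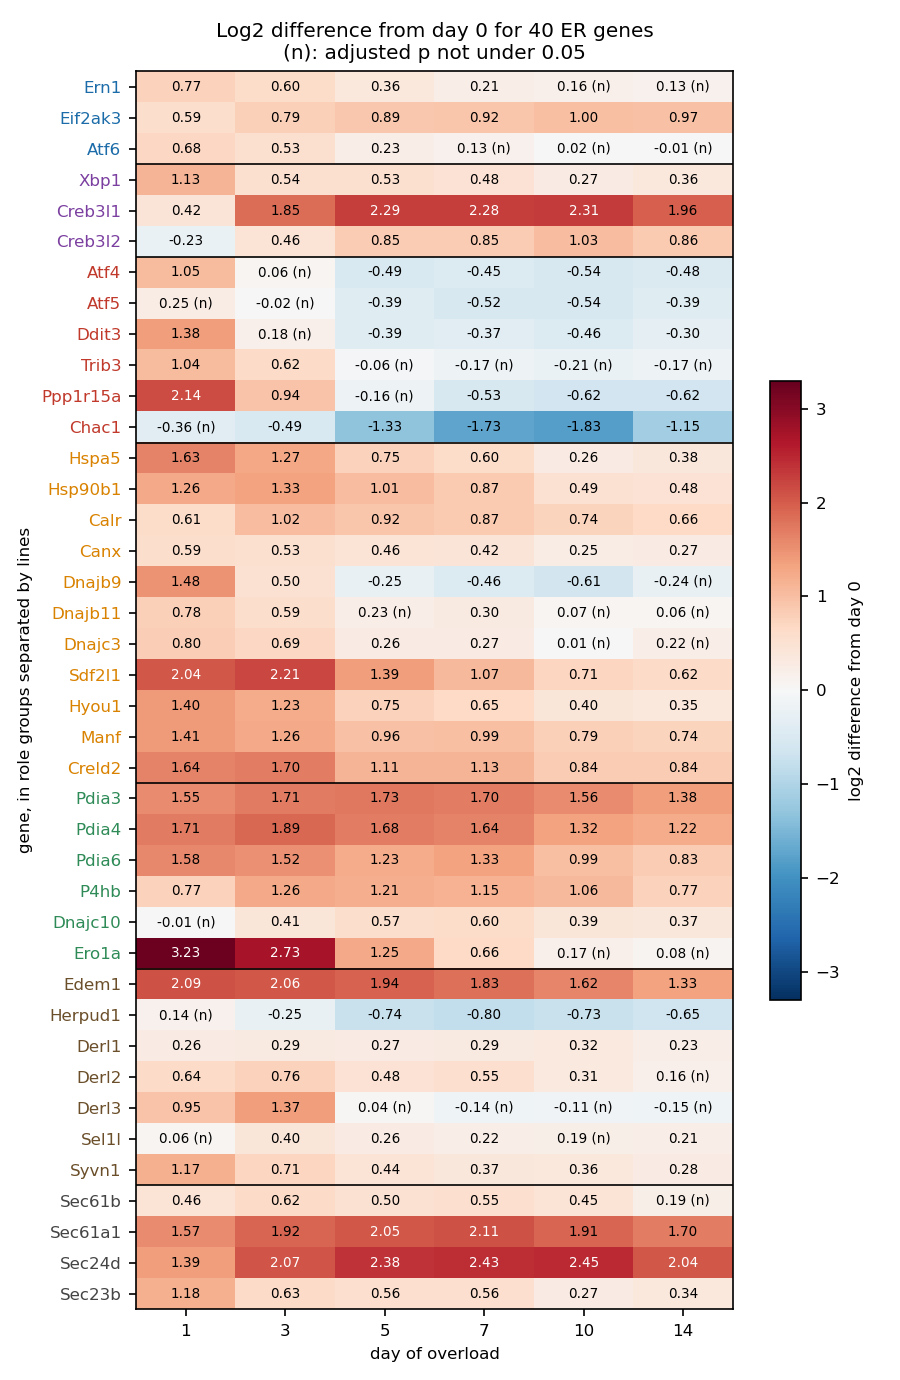
Log2 difference from day 0 of each of the 40 genes (rows, grouped by role) on days 1, 3, 5, 7, 10 and 14 (columns), in colour, with differences not called by limma marked. Most rows are red on days 1 and 3 and pale later, the ATF4 arm turns blue from day 5, and Creb3l1 and Sec24d stay red to day 14.

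Promoter sequence is shown for 8 of the 15 genes in which letters of a known response element occur, picked after their values were seen so that each of the 5 motifs searched can be read at least once. RefSeq promoters (GRCm38.p6, 250 bases before to 50 after the start) were at hand for 34 of the 40 genes. The 6 without one are Atf6, Creb3l1, Hyou1, Manf, Derl1 and Sec61a1. Both strands were searched for 5 motifs, chosen with the values of these genes known, and no match of one motif overlapped that of another. The ER stress element, ERSE, was searched as CCAAT, any 9 bases and CCACG, in which NF-Y binds the first part and ATF6 or XBP1 the last. It occurred in 9 of the 34 genes (26.5%), namely Hspa5, Hsp90b1, Calr, Canx, Dnajc3, Creld2, Pdia6, Derl3 and Syvn1, and in 0.137% of all 27025 genes with a promoter. Of all 37 genes with this match, the 9 make up 24.3%. The 40 were chosen by name from the ER and its stress response, so the larger share among them is no result of these data. ERSE-II, searched as ATTGG, any base and CCACG, occurred in Dnajb11 and Herpud1 and in 0.0444% of all genes with a promoter. The C/EBP-ATF response element that ATF4 binds, searched as TGATGNAA, occurred in Trib3, Chac1 and Herpud1 and in 4.51% of all genes with a promoter. The XBP1-binding core TGACGTGG occurred in Sec24d (0.714% of all genes with a promoter), and the cyclic AMP response element TGACGTCA in Ppp1r15a (2.03%). Each line gives the 200 bases before the start, 5′ to 3′ on the gene's strand, with the fixed letters of a match in capitals.
Hspa5: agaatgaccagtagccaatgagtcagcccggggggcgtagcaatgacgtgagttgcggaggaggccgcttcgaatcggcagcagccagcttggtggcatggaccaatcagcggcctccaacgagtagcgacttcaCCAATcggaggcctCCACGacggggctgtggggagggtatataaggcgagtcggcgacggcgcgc
Creld2: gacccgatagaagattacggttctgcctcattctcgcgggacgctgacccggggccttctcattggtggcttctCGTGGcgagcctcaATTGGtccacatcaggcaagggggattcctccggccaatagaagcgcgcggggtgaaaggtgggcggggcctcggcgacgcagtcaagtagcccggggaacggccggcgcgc
Derl3: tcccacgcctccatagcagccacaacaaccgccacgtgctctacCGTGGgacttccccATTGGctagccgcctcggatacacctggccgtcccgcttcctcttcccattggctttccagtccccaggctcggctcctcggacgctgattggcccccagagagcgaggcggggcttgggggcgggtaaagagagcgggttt
Syvn1: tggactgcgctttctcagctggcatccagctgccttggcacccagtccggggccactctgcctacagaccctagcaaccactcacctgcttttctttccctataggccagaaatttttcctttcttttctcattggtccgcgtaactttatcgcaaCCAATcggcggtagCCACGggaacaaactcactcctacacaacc
Herpud1: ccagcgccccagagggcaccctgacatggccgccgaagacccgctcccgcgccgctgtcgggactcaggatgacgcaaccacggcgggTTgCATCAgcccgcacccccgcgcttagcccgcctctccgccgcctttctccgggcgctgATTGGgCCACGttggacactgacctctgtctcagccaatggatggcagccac
Chac1: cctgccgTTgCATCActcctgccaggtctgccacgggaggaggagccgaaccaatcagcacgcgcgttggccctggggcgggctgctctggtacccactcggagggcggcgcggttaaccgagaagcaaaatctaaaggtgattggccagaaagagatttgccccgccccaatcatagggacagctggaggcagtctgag
Ppp1r15a: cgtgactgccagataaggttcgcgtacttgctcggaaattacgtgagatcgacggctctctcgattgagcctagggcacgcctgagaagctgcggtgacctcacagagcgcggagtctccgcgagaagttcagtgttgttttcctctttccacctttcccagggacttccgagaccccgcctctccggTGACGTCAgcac
Sec24d: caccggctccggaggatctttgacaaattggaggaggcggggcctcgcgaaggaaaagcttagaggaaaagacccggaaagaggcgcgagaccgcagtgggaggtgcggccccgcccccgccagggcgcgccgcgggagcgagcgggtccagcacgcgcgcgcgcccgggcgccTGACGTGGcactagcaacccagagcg
The stretches lie for Hspa5 at chr2:34771890-34772089 on the plus strand, Creld2 at chr15:88819446-88819645 on the plus strand, Derl3 at chr10:75893198-75893397 on the plus strand and Syvn1 at chr19:6046376-6046575 on the plus strand. The others lie for Herpud1 at chr8:94386229-94386428 on the plus strand, Chac1 at chr2:119351042-119351241 on the plus strand, Ppp1r15a at chr7:45526269-45526468 on the minus strand and Sec24d at chr3:123267296-123267495 on the plus strand. In Hspa5 the match runs from 65 to 47 bases before the start, and in Syvn1 from 44 to 26. In Creld2 and Derl3 it reads on the other strand, so the letters appear as CGTGG and then ATTGG, from 126 to 108 and from 156 to 138 bases before the start. Herpud1 holds its ERSE-II match 52 to 42 bases before the start and its ATF4 element, on the other strand, 112 to 105 before it. Chac1 holds that element 193 to 186 bases before the start. A match describes these letters and shows no binding. All 9 genes with ERSE rose on day 1 and on day 3 (medians 1.17 and 1.27). Among the 40, 23 have a promoter with neither ERSE nor ERSE-II. Of these, 18 rose on day 1 and 19 on day 3 (medians 1.05 and 0.62), and no test sets the groups against each other. Of all tested genes with a promoter, 22.7% and 24.5% were higher on these days. Outside the 40, 12 tested genes have the ERSE letters, and 2 were higher on day 1 and 5 on day 3. Genes with the same letters also took different courses: of those with the ATF4 element Trib3 rose on day 1 (1.04), while Chac1 (-0.36) and Herpud1 (0.14) were not called.

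The 3 sensor genes rose on day 1 and then parted. Ern1, which encodes the kinase and nuclease IRE1, stood at 9.52 and 9.56 on day 0, 10.32 and 10.30 on day 1, 10.13 and 10.15 on day 3, 9.90 and 9.91 on day 5, 9.83 and 9.66 on day 7, 9.74 and 9.65 on day 10 and 9.68 and 9.66 on day 14 on the left and right arrays. Every later array lay above both day 0 arrays, with the highest on day 1. The rise was 0.77 ± 0.07 on day 1 (adjusted p = 3.06e-06) and 0.60 ± 0.07 on day 3, and the difference was 0.13 ± 0.07 on day 14 (adjusted p = 0.146). Atf6, the sensor that is cut in the Golgi, had 10.70 and 10.64 on day 0, 11.32 and 11.37 on day 1, 11.10 and 11.31 on day 3, 10.89 and 10.91 on day 5, 10.81 and 10.79 on day 7, 10.71 and 10.68 on day 10 and 10.65 and 10.67 on day 14. Its day 10 and day 14 arrays overlapped those of day 0, while those of days 1 and 3 lay well above. It rose by 0.68 ± 0.08 on day 1 (adjusted p = 1.27e-05), and differed by -0.01 ± 0.08 on day 14 (adjusted p = 0.912). Eif2ak3, the gene of PERK, had 8.71 and 8.32 on day 0, 9.18 and 9.04 on day 1, 9.25 and 9.36 on day 3, 9.36 and 9.46 on day 5, 9.43 and 9.45 on day 7, 9.53 and 9.50 on day 10 and 9.46 and 9.53 on day 14. Here the arrays did not come back, and the 2 day 0 arrays lay farther apart than those of any later day. It rose by 0.59 ± 0.11 on day 1 (adjusted p = 0.000729) and by 1.00 ± 0.11 on day 10 (adjusted p = 7.66e-06), and was lower on days 1 and 3 than on days 10 and 14 (difference -0.30, adjusted p = 0.00628). The weak calls were Ern1 on day 7 (0.21), lost without either day 0 array or the day 7 left array (adjusted p = 0.0538 to 0.236), and Atf6 on day 5 (0.23), lost without the day 0 right or either day 5 array (adjusted p = 0.0632 to 0.105). Without any one of the arrays named for Ern1 the sensors called higher on day 7 went from 2 to 1, as they did under quantile normalization and under equal array medians. With the all-gene median set to 0, Ern1 was called higher on days 10 and 14 too (0.28 and 0.24, adjusted p = 0.00599 and 0.0165) and Atf6 on day 7 (0.27, adjusted p = 0.00894), so that 2 sensors in place of 1 were called on days 10 and 14.

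**Figure D2:**
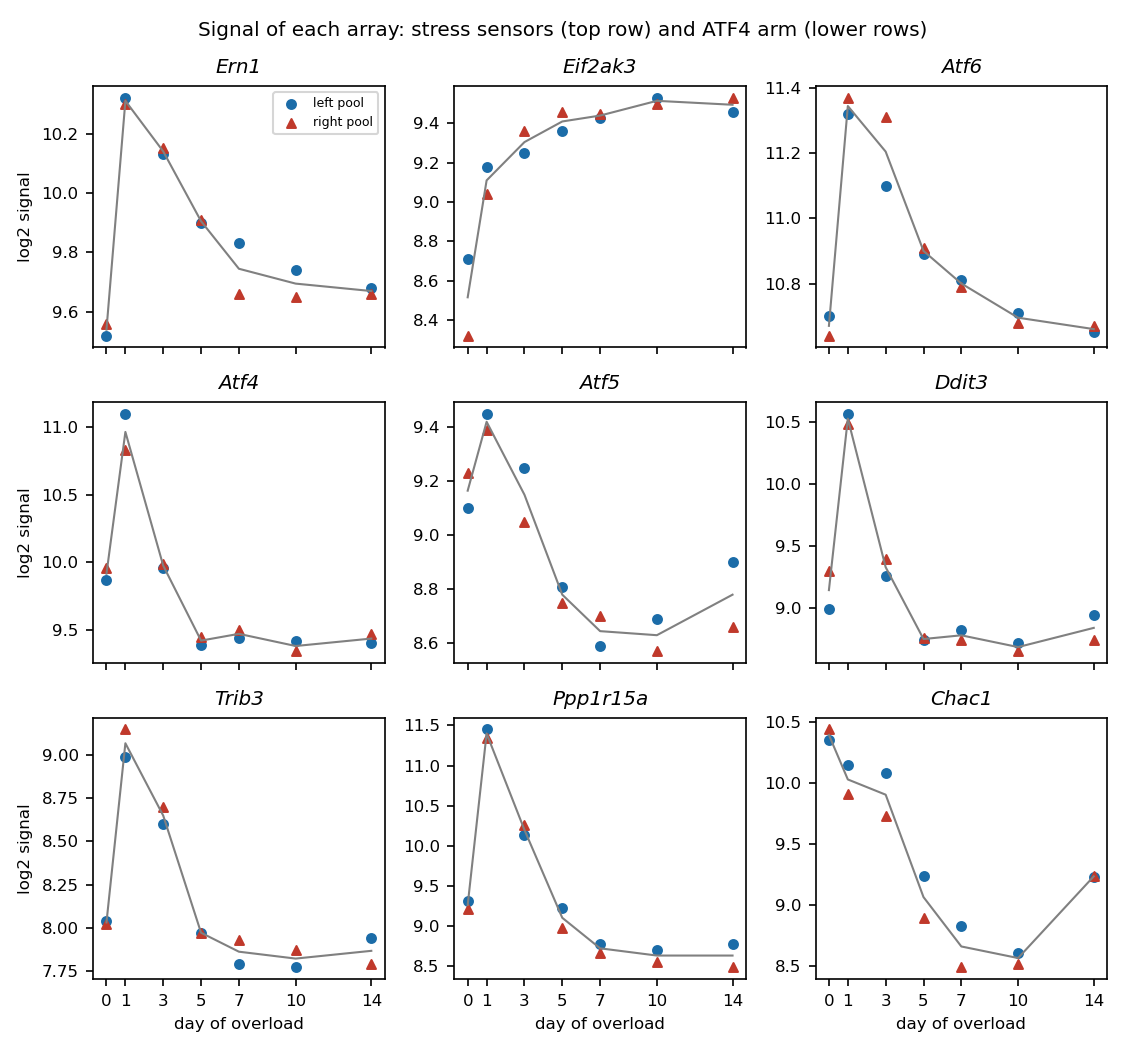
Log2 signal of each array (left and right pools as separate symbols, line through the day means) against day of overload for the 3 sensor genes and the 6 genes of the ATF4 arm. Ern1 and Atf6 peak on day 1, Eif2ak3 stays up to day 14, and Atf4, Ddit3 and Ppp1r15a peak on day 1 and lie below day 0 from day 7.

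Of the 3 transcription factor genes downstream of ER load, Xbp1 was highest on day 1 and Creb3l1 and Creb3l2 on day 10. Xbp1, whose spliced form drives chaperone and ERAD genes, rose by 1.13 ± 0.07 on day 1 (adjusted p = 1.12e-07), from 11.84 and 11.77 to 12.86 and 13.01. It was down to 0.54 on day 3, lower than on day 1 (adjusted p = 4.86e-05), and stood at 0.36 on day 14 (adjusted p = 0.00127). The probe set does not separate the spliced from the unspliced message. Creb3l1, or OASIS, is a membrane-bound factor known for driving collagen genes in bone and in fibrotic tissue, and it stood at 8.77 and 8.52 on day 0, 8.97 and 9.17 on day 1, 10.58 and 10.42 on day 3, 10.85 and 11.03 on day 5, 10.94 and 10.91 on day 7, 11.01 and 10.91 on day 10 and 10.58 and 10.64 on day 14. Its arrays stepped up between days 1 and 3 and stayed there. The difference was 0.42 ± 0.11 on day 1 (adjusted p = 0.00523) and 1.85 ± 0.11 on day 3, and reached 2.31 ± 0.11 on day 10, a 4.97-fold rise (adjusted p = 4.46e-09). Creb3l2, a relative known for raising COPII subunits in cartilage, stood at 9.69 and 9.56 on day 0, 9.36 and 9.42 on day 1, 10.09 and 10.08 on day 3, 10.47 and 10.47 on day 5, 10.54 and 10.40 on day 7, 10.67 and 10.63 on day 10 and 10.48 and 10.48 on day 14. Both its day 1 arrays lay below both day 0 arrays, and all later arrays lay above them. It fell by 0.23 ± 0.07 on day 1 (adjusted p = 0.0221), a call not kept without the day 0 left or day 1 left array (adjusted p = 0.0944 to 0.158). With only the 4 arrays compared that fall was not called either (adjusted p = 0.111). Creb3l2 rose by 1.03 ± 0.07 on day 10 (adjusted p = 1.78e-07). The day 1 rise of Creb3l1 was not called without the day 0 right or day 1 right array (adjusted p = 0.0578 to 0.0615). The day 10 rise of Xbp1 (0.27) was not called when array medians were made equal (adjusted p = 0.0975).

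Of the 6 genes of the ATF4 arm, 4 rose on day 1, with a median of 1.05, and 0 fell (22.3% and 22.6% of all genes). On day 5, 4 of the 6 fell and 0 rose (33.7% and 26.4% of all genes). On day 10, 5 fell, with a median of -0.54 (34.3% of all genes lower). Most of these falls were small: at 1.5-fold they numbered 1 on days 5 and 7 and 2 on days 10 and 14. The daily shares of all genes apply to the counts of the other role groups too. Atf4, the transcription factor itself, had 9.87 and 9.96 on day 0, 11.10 and 10.83 on day 1, 9.96 and 9.99 on day 3, 9.39 and 9.45 on day 5, 9.44 and 9.50 on day 7, 9.42 and 9.34 on day 10 and 9.40 and 9.47 on day 14. The day 1 arrays lay highest and those from day 5 on lay below both day 0 arrays. It rose by 1.05 ± 0.09 on day 1 (adjusted p = 1.05e-06) and fell by 0.54 ± 0.09 on day 10 (adjusted p = 0.000212). Ddit3 encodes CHOP, a factor linked to cell death under prolonged ER stress, and it had 8.99 and 9.30 on day 0, 10.57 and 10.49 on day 1, 9.26 and 9.40 on day 3, 8.74 and 8.76 on day 5, 8.82 and 8.74 on day 7, 8.72 and 8.65 on day 10 and 8.94 and 8.74 on day 14. The day 1 arrays lay highest, the day 3 arrays overlapped those of day 0, and all arrays from day 5 on lay below both day 0 arrays. It rose by 1.38 ± 0.11 on day 1 (adjusted p = 4.72e-07), a 2.61-fold rise, and fell by 0.46 ± 0.11 on day 10 (adjusted p = 0.00268). Its day 0 arrays, 8.99 and 9.30, were farther apart than those of any later day. Ppp1r15a encodes GADD34, the phosphatase subunit that reverses eIF2 phosphorylation. Its signals were 9.32 and 9.21 on day 0, 11.45 and 11.35 on day 1, 10.14 and 10.26 on day 3, 9.23 and 8.98 on day 5, 8.78 and 8.67 on day 7, 8.71 and 8.56 on day 10 and 8.78 and 8.49 on day 14. This was the steepest course of the group, with day 1 arrays far above and day 7 to 14 arrays below day 0. It rose by 2.14 ± 0.11 on day 1, or 4.41-fold (adjusted p = 2.54e-08), and fell by 0.62 ± 0.11 on day 14 (adjusted p = 0.000656).

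Trib3, a pseudokinase that ATF4 and CHOP induce, had 8.04 and 8.02 on day 0, 8.99 and 9.15 on day 1, 8.60 and 8.70 on day 3, 7.97 and 7.97 on day 5, 7.79 and 7.93 on day 7, 7.77 and 7.87 on day 10 and 7.94 and 7.79 on day 14. It rose on days 1 and 3, by 1.04 ± 0.09 and 0.62 ± 0.09 (adjusted p = 8.81e-07 and 5.2e-05), and its later differences, down to -0.21 on day 10, were not called (adjusted p = 0.0532). With equal array medians it was called lower on days 7, 10 and 14 (adjusted p = 0.00622, 0.00384 and 0.013). Atf5, a factor translated like ATF4 when eIF2 is phosphorylated, had 9.10 and 9.23 on day 0, 9.45 and 9.39 on day 1, 9.25 and 9.05 on day 3, 8.81 and 8.75 on day 5, 8.59 and 8.70 on day 7, 8.69 and 8.57 on day 10 and 8.90 and 8.66 on day 14. It did not pass on day 1 (0.25 ± 0.10, adjusted p = 0.0563) and fell by 0.54 ± 0.10 on day 10 (adjusted p = 0.000534). Chac1, which degrades glutathione and is a known target of ATF4, went its own way from day 1. It had 10.35 and 10.44 on day 0, 10.15 and 9.91 on day 1, 10.08 and 9.73 on day 3, 9.24 and 8.89 on day 5, 8.83 and 8.49 on day 7, 8.61 and 8.52 on day 10 and 9.23 and 9.24 on day 14. Both day 1 arrays already lay below both day 0 arrays, and the lowest readings came on days 7 and 10. The difference was -0.36 ± 0.15 on day 1 (adjusted p = 0.0663), and Chac1 fell by 1.83 ± 0.15 on day 10 (adjusted p = 4.88e-07). The day 1 fall of Chac1 was called with equal array medians, with the all-gene median set to 0, with the lowest 25% of genes left out and with only the 4 arrays compared (adjusted p = 0.0419 to 0.0491). On day 14 it was higher than on day 10 by 0.67 ± 0.15 (adjusted p = 0.0171) and still below day 0. The day 3 fall of Chac1 (-0.49) was not called without the day 0 right or day 3 right array (adjusted p = 0.0771 to 0.156). The count of falls on day 14 went from 5 to 3 without the day 0 right or the day 14 right array, where Ddit3 and Atf5 were not called (adjusted p = 0.216 to 0.296 and 0.0509 to 0.0755). Ddit3 was also not called on days 5 and 7 without the day 0 right array, nor on day 7 without the day 7 right array (adjusted p = 0.0862 and 0.0581 to 0.119), and its falls on days 7 and 14 were not called once the all-gene median was set to 0 (adjusted p = 0.0915 and 0.16).

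The chaperones and co-chaperones rose as a whole on days 1 and 3. All 11 rose on both, with medians of 1.40 and 1.23, and 8 of them rose on day 14, with a median of 0.38. Sdf2l1, a cofactor that helps BiP hold its clients, rose most. It stood at 8.88 and 8.69 on day 0, 10.74 and 10.92 on day 1, 11.01 and 10.97 on day 3, 10.20 and 10.14 on day 5, 9.76 and 9.94 on day 7, 9.48 and 9.50 on day 10 and 9.38 and 9.43 on day 14. Arrays of days 1 and 3 lay highest, and none returned to the day 0 range. The rise was 2.21 ± 0.09 on day 3, or 4.63-fold (adjusted p = 2.75e-09), and 0.62 ± 0.09 on day 14 (adjusted p = 0.000122). Hspa5, the gene of BiP, the main Hsp70 of the ER, rose from 12.06 and 11.99 on day 0 to 13.58 and 13.73 on day 1. That is 1.63 ± 0.09, or 3.1-fold (adjusted p = 5.02e-08), and 0.38 was left on day 14 (adjusted p = 0.00522). Hyou1, which exchanges nucleotides on BiP, and Manf, a secreted ER factor that binds BiP, rose by 1.40 ± 0.08 and 1.41 ± 0.10 on day 1. Creld2, another secreted ER stress protein, rose by 1.64 ± 0.11 on day 1 and 1.70 ± 0.11 on day 3, and Hsp90b1, the ER Hsp90, by 1.26 ± 0.08 and 1.33 ± 0.08.

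The lectin chaperones hold glycoproteins while they fold. Calr, calreticulin, rose by 0.61 ± 0.08 on day 1 and more on day 3, by 1.02 ± 0.08, and the step between these days was called (adjusted p = 0.0011). It was still 0.66 above day 0 on day 14 (adjusted p = 1.7e-05). Canx, its membrane-bound partner, rose by 0.59 ± 0.09 on day 1 (adjusted p = 0.000197). The J proteins bring clients to BiP. Dnajc3, which also inhibits PERK, and Dnajb11 rose by 0.80 ± 0.09 and 0.78 ± 0.10 on day 1, and stood at 0.01 and 0.07 on day 10, not called (adjusted p = 0.916 and 0.536). Dnajb9, or ERdj4, which restrains IRE1, was the exception of the group and had 10.86 and 10.84 on day 0, 12.28 and 12.39 on day 1, 11.31 and 11.39 on day 3, 10.65 and 10.55 on day 5, 10.50 and 10.28 on day 7, 10.28 and 10.20 on day 10 and 10.49 and 10.73 on day 14. Its day 1 arrays lay well above day 0 and those of days 5 to 14 all lay below. It rose by 1.48 ± 0.10 on day 1 (adjusted p = 1.49e-07), fell by 0.61 ± 0.10 on day 10 (adjusted p = 0.000179), and was higher on day 14 than on day 10 by 0.37 ± 0.10 (adjusted p = 0.0366). The day 5 fall of Dnajb9 (-0.25) was not called when any one array of days 0, 3, 5 or 10 was left out (adjusted p = 0.0516 to 0.187), nor with the all-gene median set to 0 (adjusted p = 0.301). The rises of Dnajb11 on day 7, Dnajc3 on days 5 and 7, Canx on days 10 and 14 and Hspa5 on day 10, between 0.25 for Canx and 0.30 for Dnajb11, were each not called when the day 0 right array, an array of the day itself or, for Canx and Hspa5, the day 0 left array was left out (adjusted p = 0.0529 to 0.181), nor under equal array medians.

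Of the 6 disulfide enzymes 5 rose on day 1, 6 on days 3, 5 and 7, and 5 on days 10 and 14, with medians of 1.56 on day 1, 1.61 on day 3 and 0.80 on day 14. Ero1a had both the highest peak and the smallest difference left on day 14. This oxidase reoxidises protein disulfide isomerase and is known to be induced by hypoxia as well as by ER stress. It stood at 9.53 and 9.48 on day 0, 12.65 and 12.82 on day 1, 12.02 and 12.45 on day 3, 10.69 and 10.82 on day 5, 10.15 and 10.17 on day 7, 9.63 and 9.72 on day 10 and 9.57 and 9.60 on day 14. The arrays of day 1 lay highest, and the mean of each later day was lower than the one before. The rise was 3.23 ± 0.12 on day 1, or 9.41-fold (adjusted p = 1.73e-09), the largest among the 40 genes, and the difference was 0.08 ± 0.12 on day 14 (adjusted p = 0.578). Pdia3, which works with calnexin and calreticulin on glycoproteins, rose by 1.55 ± 0.11 on day 1 and was still up by 1.38 ± 0.11 on day 14. Pdia4 rose by 1.89 ± 0.13 on day 3, and a second, dimmer probe set of the gene gave a smaller rise, 0.91 against 1.64 on day 7. Pdia6, which binds BiP and IRE1, rose by 1.58 ± 0.09 on day 1. P4hb is the isomerase that also forms part of collagen prolyl 4-hydroxylase. It rose by 0.77 ± 0.07 on day 1 and by 1.26 ± 0.07 on day 3, a step that was called (adjusted p = 0.000163). Dnajc10, a reductase of ERAD, was not called on day 1 (-0.01 ± 0.07, adjusted p = 0.909) and rose by 0.60 ± 0.07 on day 7 (adjusted p = 1.95e-05).

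The ERAD genes split by member. Edem1, which trims mannose from misfolded glycoproteins, rose most and stood at 9.82 and 9.43 on day 0, 11.72 and 11.71 on day 1, 11.63 and 11.75 on day 3, 11.46 and 11.68 on day 5, 11.35 and 11.56 on day 7, 11.20 and 11.29 on day 10 and 10.86 and 11.05 on day 14. All later arrays lay more than 1 log2 unit above both day 0 arrays. It rose by 2.09 ± 0.13 on day 1, or 4.26-fold (adjusted p = 7.83e-08), and by 1.33 ± 0.13 on day 14 (adjusted p = 3.48e-06). Syvn1, the HRD1 ubiquitin ligase, rose by 1.17 ± 0.08 on day 1 and 0.71 ± 0.08 on day 3, whereas its partner Sel1l had 0.06 ± 0.08 on day 1 (adjusted p = 0.586) and rose by 0.40 ± 0.08 on day 3 (adjusted p = 0.000791). The 3 derlins, membrane proteins of the exit channel, had 3 courses. Derl1 stayed within 0.23 to 0.32 on all days, Derl2 went from 0.64 and 0.76 on days 1 and 3 to 0.16 on day 14 (adjusted p = 0.0976), and Derl3 rose by 0.95 ± 0.10 and 1.37 ± 0.10 on days 1 and 3. Derl3 had 7.69 and 7.80 on day 0, 9.09 and 9.15 on day 3 and 7.80 and 7.76 on day 5, a step of -1.34 (adjusted p = 1.63e-05). Herpud1, which gathers the HRD1 complex and is quickly turned over, went against the group with 11.68 and 11.83 on day 0, 11.96 and 11.83 on day 1, 11.44 and 11.55 on day 3, 11.14 and 10.89 on day 5, 10.93 and 10.98 on day 7, 11.08 and 10.96 on day 10 and 11.08 and 11.11 on day 14. The day 1 arrays overlapped day 0, and all arrays from day 3 lay below it. It had 0.14 ± 0.10 on day 1 (adjusted p = 0.273) and fell by 0.80 ± 0.10 on day 7 (adjusted p = 1.48e-05). Of the 7 genes 5 rose on day 1 (median 0.64), and 4 rose and 1 fell on day 14 (median 0.21). The day 14 count of rises went from 4 to 1 without the day 0 right or the day 14 left array, where Derl1, Sel1l and Syvn1 were not called (adjusted p = 0.0537 to 0.0582, 0.0515 to 0.213 and 0.0668 to 0.104 over the arrays left out). Equal array medians ended the same 3 calls. The day 3 fall of Herpud1 (-0.25) was not called without the day 0 right array or either array of days 3, 7 or 14 (adjusted p = 0.053 to 0.249), nor with the all-gene median set to 0.

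**Figure D3:**
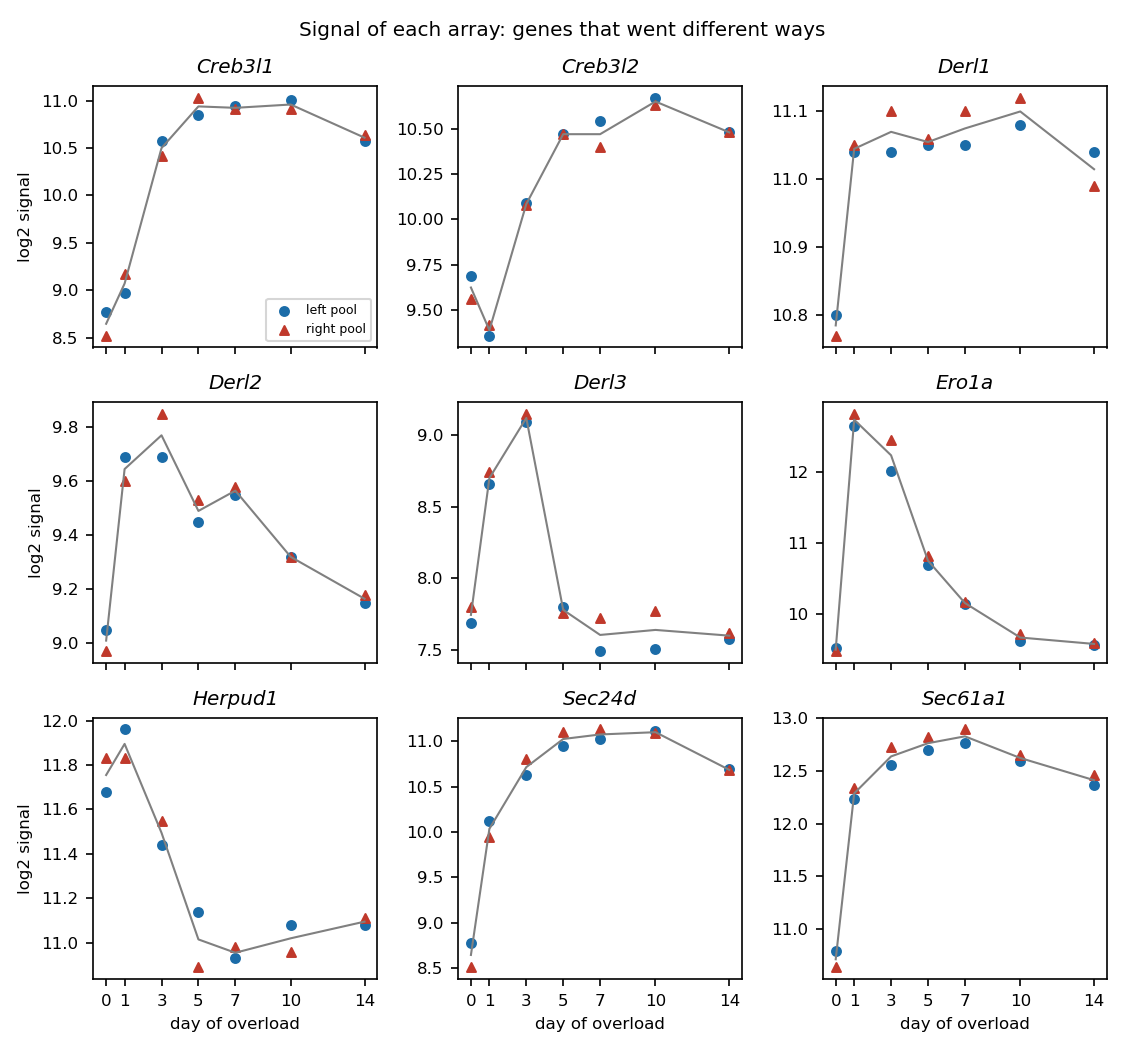
Log2 signal of each array (left and right pools as separate symbols, line through the day means) against day of overload for 9 genes, each on its own axis. Creb3l1 and Sec24d are highest from day 5 to day 10, and Creb3l2 is highest on day 10. Ero1a and Derl3 come back close to day 0, and Herpud1 lies below day 0 from day 3.

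Genes of entry into and export from the ER rose on day 1, and of these Sec24d and Sec61a1 stayed far above day 0 up to day 14. All 4 rose from day 1 to day 10, with medians between 1.18 and 1.34, and 3 rose on day 14. Sec24d is the cargo-binding COPII subunit whose loss in people and fish disturbs collagen export. It stood at 8.78 and 8.51 on day 0, 10.12 and 9.95 on day 1, 10.63 and 10.80 on day 3, 10.95 and 11.10 on day 5, 11.02 and 11.13 on day 7, 11.11 and 11.09 on day 10 and 10.69 and 10.68 on day 14. Each day's arrays lay above those of day 0, with the highest from day 5 to day 10. The rise was 1.39 ± 0.10 on day 1, 2.45 ± 0.10 on day 10, or 5.47-fold (adjusted p = 2.8e-09), and 2.04 ± 0.10 on day 14. Sec23b, the partner subunit, had another shape, with 1.18 ± 0.09 on day 1, 0.63 ± 0.09 on day 3 and 0.34 ± 0.09 on day 14 (adjusted p = 0.00781). Sec61a1, the pore of the translocon, rose from 10.79 and 10.64 on day 0 to 12.76 and 12.89 on day 7, by 2.11 ± 0.09 or 4.33-fold (adjusted p = 3.1e-09). Sec61b, a small subunit of the same channel, rose by 0.62 ± 0.10 on day 3 and was not called on day 14 (0.19, adjusted p = 0.115). Its 3 probe sets gave 0.46, 0.29 and 0.26 on day 1. The rises of Sec23b on days 10 and 14 were not called without the day 0 right array or, on day 10, either day 10 array and, on day 14, the left day 14 array (adjusted p = 0.0563 to 0.142 and 0.0524 to 0.0655), nor on day 10 under equal array medians.

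Early and late days were compared directly, with days 1 and 3 set against days 10 and 14. Of the 40 genes 29 were higher early and 5 higher late, beside 37.6% and 23.6% of all genes. The median difference was 0.60, and that of all genes 0.10. All 6 genes of the ATF4 arm were higher early, from 0.58 for Atf5 to 2.16 for Ppp1r15a. Among chaperones 10 of 11 were higher early, and the remaining one was Calr (0.11 ± 0.05, adjusted p = 0.0841). Ero1a had the largest early excess, 2.86 ± 0.08 (adjusted p = 1.43e-10). The 5 genes higher late were Creb3l1 (-1.0), Creb3l2 (-0.83), Sec24d (-0.52), Eif2ak3 (-0.30) and Dnajc10 (-0.18). Besides Calr, those not called were Pdia3, P4hb, Derl1, Sel1l and Sec61a1, with differences between -0.06 for Sec61a1 and 0.16 for Pdia3. The day 0 arrays, which all differences from day 0 share, do not enter these differences. They do enter the variance behind the standard errors and adjusted p.

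**Figure D4:**
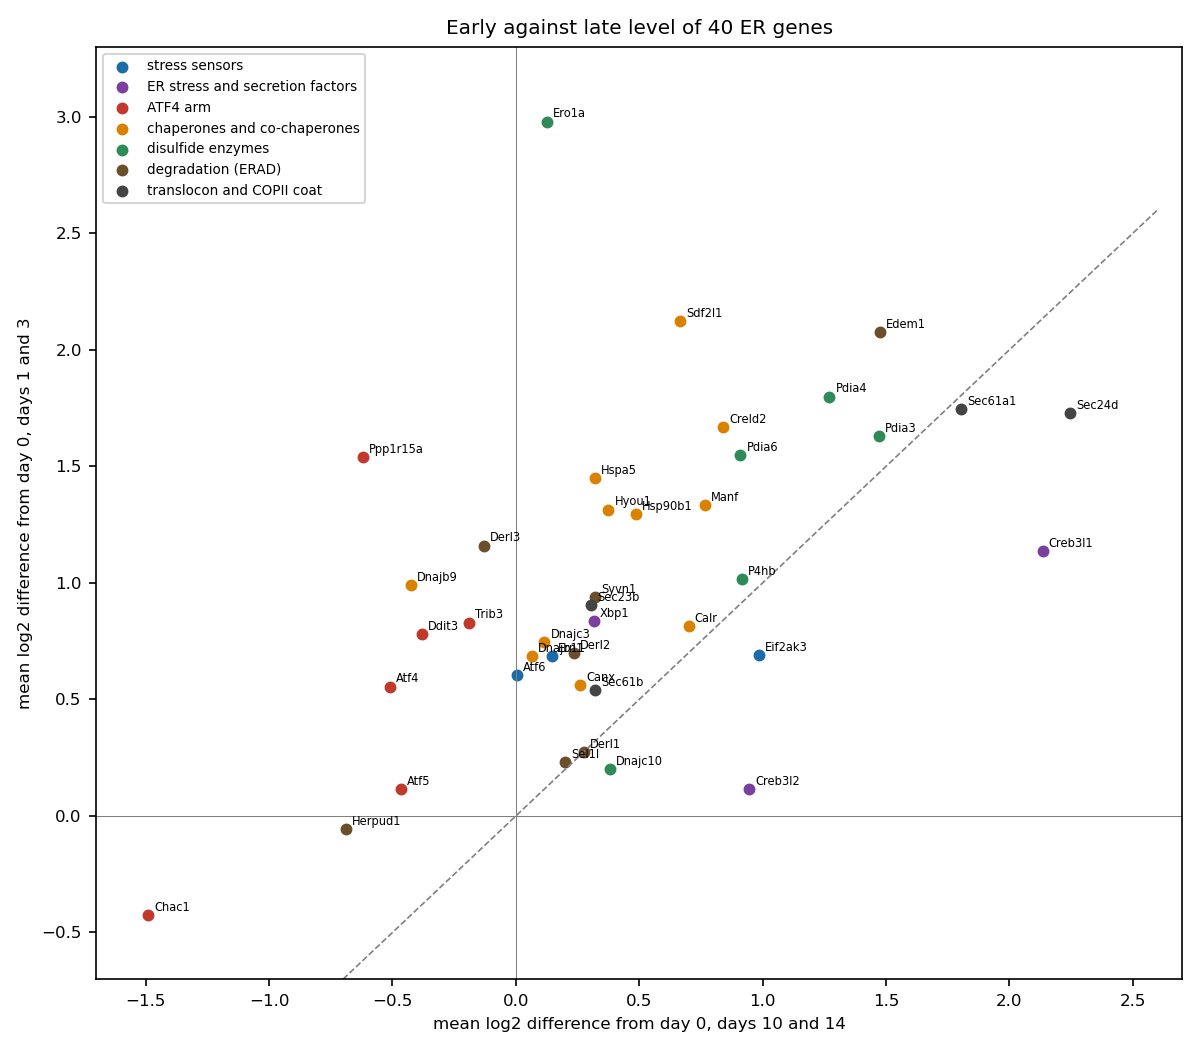
Mean log2 difference from day 0 on days 1 and 3 (vertical axis) against that on days 10 and 14 (horizontal axis) for the 40 genes, coloured by role, with a dashed line where both are equal. Ero1a and Ppp1r15a lie far above the line, and Creb3l1, Creb3l2 and Sec24d lie below it.

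Between sampled days, the 40 genes changed mostly up to day 5. From day 1 to day 3, 9 rose and 12 fell (19.5% and 24.7% of all genes), with the ATF4 arm giving 5 of the falls. Creb3l1 rose by 1.43 ± 0.11 in that step, and Ddit3 and Ppp1r15a fell by 1.20 ± 0.11 and 1.20 ± 0.11. From day 3 to day 5, 2 rose, Creb3l1 and Creb3l2, and 18 fell, where 4.68% of all genes rose and 1.9% fell. The 18 held all 6 of the ATF4 arm and 7 of the 11 chaperones. Ero1a fell by 1.48 ± 0.12 and Derl3 by 1.34 ± 0.10. Without the day 3 right or day 5 right array the count of falls was 9 and 10, and the rises numbered 0 or 1 when any one array of days 3 or 5 was left out. From day 5 to day 7 Ero1a alone fell, by 0.59 ± 0.12 (adjusted p = 0.0371), with 0.627% of all genes lower and 0.401% higher. From day 7 to day 10 Hsp90b1 alone fell, by 0.37 ± 0.08 (adjusted p = 0.0468), with 1% of all genes lower and 0.933% higher. From day 10 to day 14 Chac1 and Dnajb9 rose and P4hb and Sec24d fell, the last by 0.41 ± 0.10 (adjusted p = 0.0314), with 3.79% and 5.11% of all genes called. The fall of Ero1a from day 5 was not called when any one array of days 5, 7, 10 or 14 was left out, nor that of Hsp90b1 when any one of days 1, 5, 7, 10 or 14 was. The falls from day 10 to day 14 were not called when any one array of those days was left out, and the rises then numbered 0 or 1, as they did without an array of day 3.

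Other genes of the same routes, from lists written beside the 40, followed several courses. The shares of all genes called on each day, given above beside the 40, apply to their counts too. Other ER folding genes had their highest median on day 5. Of 28, 17 rose and 3 fell on day 1 with a median of 0.37, and 23 rose and 1 fell on day 5 with a median of 0.84. Pdia5, a further disulfide isomerase, rose by 2.29 ± 0.10 on day 7 (adjusted p = 3.54e-09), and Prdx4, an ER peroxiredoxin, and Fkbp7, a prolyl isomerase, rose by 2.06 ± 0.11 on day 7 and 2.04 ± 0.12 on day 10. Ero1b, the second ER oxidase, rose by 0.84 ± 0.08 on day 1, against 3.23 for Ero1a. Other ERAD genes showed no common direction, with 9 higher and 6 lower of 22 on day 1 and 6 and 9 on day 10. Os9, a lectin that hands clients to HRD1, rose by 1.19 ± 0.08 on day 5, Edem2 by 1.12 ± 0.08 on day 3, and Marchf6, another ER ubiquitin ligase, fell by 1.13 ± 0.10 on day 7.

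Paralogues of the export and entry genes are set beside them, with no test of the difference. Sec61a2 fell by 0.48 ± 0.08 on day 7, where Sec61a1 rose. Sec24a fell by 0.40 ± 0.07 on day 7 (adjusted p = 0.000391), where Sec24d rose by 2.43, and Sec24b and Sec24c had 0.15 ± 0.07 and 0.03 ± 0.08 (adjusted p = 0.0671 and 0.713). Sec23a fell by 0.35 ± 0.09 on day 1, the day of the Sec23b peak. In the list of other COPII and export genes 11 of 20 rose and 5 fell on day 3. Kdelr3, a receptor that returns chaperones to the ER, rose by 3.47 ± 0.09 on day 7 (adjusted p = 1.88e-10), while the GTPase gene Sar1b fell by 1.63 ± 0.10 on day 5, and Sec16b, of the exit sites, rose by 1.78 ± 0.10 on day 10. Of 30 other translocon, signal peptidase and oligosaccharyl transferase genes 18 rose and 3 fell on day 1. Ostc, Tram1 and Tram2 rose most, by 1.86 ± 0.10, 1.43 ± 0.10 and 1.64 ± 0.08 on days 7, 7 and 10.

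Other targets of ATF4 had a median of 1.35 on day 1, where 17 of 23 rose and 2 fell, and of 0.36 on day 14, where 11 rose and 5 fell. The 6 genes of the ATF4 arm had 1.05 and -0.44 on these days. Slc7a11, the cystine carrier, rose by 4.27 ± 0.24 on day 1 (adjusted p = 3.84e-08), Atf3 by 2.56 ± 0.19 on day 1 and Psat1, of serine synthesis, by 2.51 ± 0.14 on day 3. On day 14 Psat1 was still 1.43 above day 0 (adjusted p = 4.26e-06), when Atf4 stood at -0.48. Among 11 genes of eIF2 kinases, phosphatase and eIF2B, 3 rose and 2 fell on day 1 (22.3% and 22.6% of all genes), with a median of -0.01. On day 10, 3 rose and 7 fell (25.9% and 34.3% of all genes), with a median of -0.26. Eif2ak2, the kinase PKR, rose by 1.39 ± 0.08 on day 5, Ppp1r15b, the constitutive counterpart of GADD34, by 0.89 ± 0.08 on day 1, and Eif2s2 fell by 0.70 ± 0.12 on day 10. Among 14 other genes of UPR sensing and cell death 6 rose and 1 fell on day 1. Bcl2l11, or BIM, a target of CHOP, rose by 1.17 ± 0.09 on day 1, Bak1 by 1.14 ± 0.08 on day 3, and Casp12 fell by 0.94 ± 0.10 on day 10. Atf6b, the sister of Atf6, was still 0.42 up on day 14 (adjusted p = 0.000857).

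**Figure D5:**
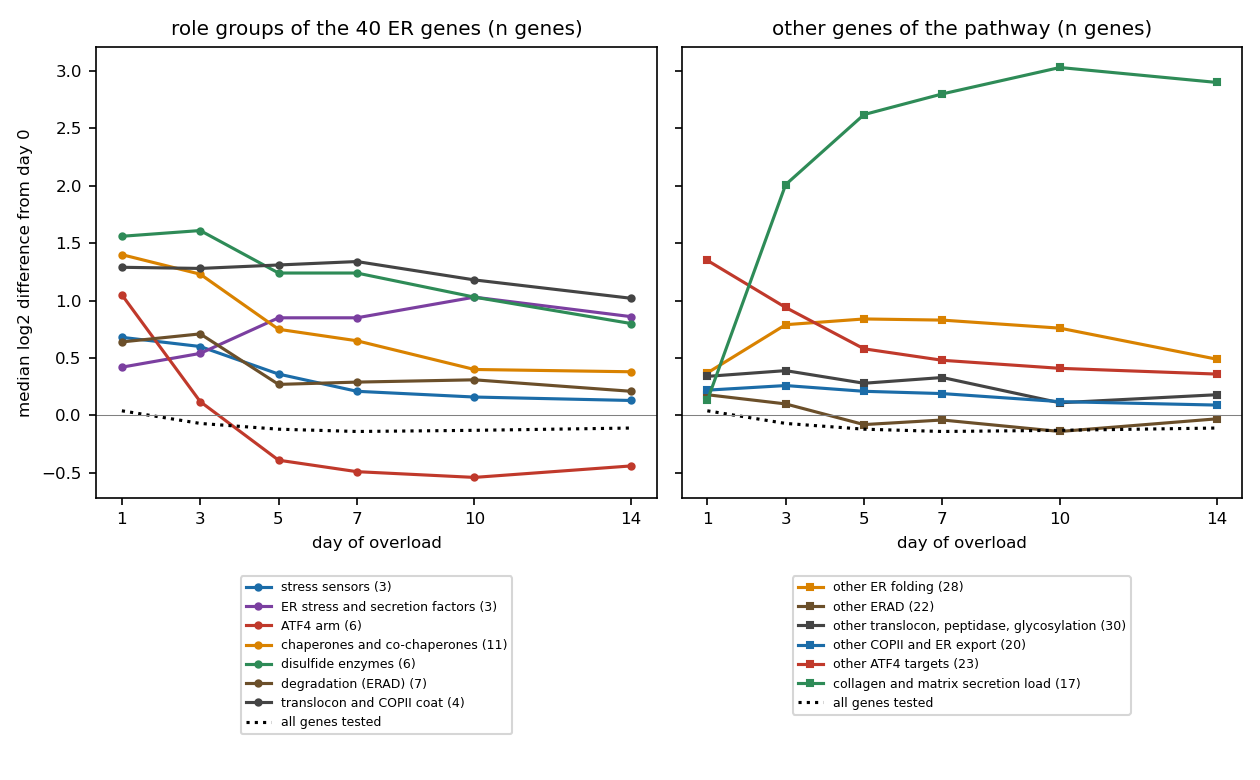
Median log2 difference from day 0 against day of overload, on the left for the 7 role groups of the 40 genes and on the right for other genes of the same routes and for collagen and matrix genes, with all genes tested as a dotted line in both. The ATF4 arm goes from 1.05 on day 1 to -0.54 on day 10, and the collagen and matrix genes from 0.13 to 3.03.

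Genes of collagens and other matrix proteins, whose products pass through the ER, rose mostly from day 3 on. Of 17, 7 rose and 5 fell on day 1 (22.3% and 22.6% of all genes), with a median of 0.13. The median of the 11 chaperones was 1.40 on that day, and a link between the groups was not tested. All 17 matrix genes rose from day 3 on. Their median was 2.01 on day 3 and 3.03 on day 10. Lox, the collagen crosslinking oxidase, rose by 4.28 ± 0.17 on day 5, and Postn and Tnc by 4.25 ± 0.19 on day 10 and 4.05 ± 0.16 on day 7.

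Markers of several cell types moved with the same days, and their part in the changes of the 40 genes was not tested. The daily shares of all genes called, given above beside the 40, apply to the marker counts too. Neutrophil markers had 4.66 to 5.00 times their day 0 summed signal on day 1, where 9 of 9 rose, and 0.395 to 0.455 on day 14. Macrophage markers had 3.11 to 3.24 times on day 1, with 13 of 15 higher, and 3.40 to 3.68 times on day 14, with 15 of 15 higher. Fibroblast markers lay at 0.713 to 0.741 on day 1, where 7 of 11 fell, and at 2.15 to 2.23 on day 14, where 10 of 11 rose. Markers of satellite cells and regenerating fibres reached 5.77 to 6.05 times on day 10, with 10 of 10 higher. The plasma cell list, of interest because such cells are full of ER, stood at 1.20 to 1.52 times day 0 in summed signal from day 1 on. Its genes split. On day 1, 5 of 13 rose and 0 fell (median 0.17), beside 22.3% and 22.6% of all genes. On day 7, 4 rose and 5 fell (median -0.15), near the shares of all genes, 26.6% and 36.3%. Slamf7 and Sdc1, which other cells also express, led the rises. Prdm1 and Txndc11 also went up, from mean signals of 7.94 and 8.76 on day 0 to 8.81 and 9.35 on day 7. Mzb1 and Cd79a went from mean signals of 8.14 and 7.19 on day 0 to 7.52 and 6.4 on day 7. Jchain, also of this list, had mean signals between 5.77 and 6.85 from day 0 to day 10, below the 25th percentile of mean signals, and 7.25 on day 14. Keratinocyte markers, a sign of skin, stood at 1.52 to 1.99 times day 0 on day 14, with 4 of 6 higher. Below that percentile on all days lay Eaf2 of the plasma cell list and Krtdap of the keratinocyte list. Fibre markers fell on day 3 in 14 of 15 cases, with a median of -0.73.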

How the data were processed

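Total RNA of pooled plantaris muscles was hybridised to 14 arrays, 2 a day. The file deposited by the authors holds a log2 signal for each probe set. Partek is named in the submitters' processing notes, and its version and the normalization are not given in the sources used here. The labels name 250 ng of input RNA for labelling, the series' design 100 ng. Of 35557 probe sets, 21789 carry 1 symbol, 1621 several and 12147 none. Only the first were used, and a gene's brightest probe set on average stood for it. The pair of probe sets of Dnajc3 hold identical values and count once. Models with day as group were fitted to all 19938 genes with limma 3.58.1 in R 4.3.3 (7 residual degrees of freedom), with Benjamini-Hochberg adjustment over all genes. The procedure was tested on simulated data.

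All 40 genes are named. Values per array are given for the sensors, the ATF4 arm and, in each other group, the largest change and genes that went against the majority. From each pathway list the 3 genes with the largest called change are named, and paralogues were added after their values were seen. The genes, lists and motifs were chosen with earlier results of these data known. Alternatives were other scalings, a low-signal filter, other variance models, side as a block, stricter thresholds and each array left out. Columns of other samples numbered 0.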

Additional observations from a re-analysis of the deposited data

Results flagged for a closer look

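For 4 of the 40 genes, the differences from day 0 on day 1 and on day 14 were both called with opposite signs, and day 14 against day 1 was called by limma as well. Ppp1r15a, the inducible eIF2 phosphatase subunit, was lower on day 14 than on day 1 by a difference of -2.76 on the log2 scale. Ddit3 had a difference of -1.69 and Atf4 of -1.53. Creb3l2 went the other way, with 1.09. The day 14 fall of Ddit3 and the day 1 fall of Creb3l2 were among the calls not kept without single arrays. Neither was called with only the 4 arrays compared (adjusted p = 0.115 and 0.111).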

How the results depend on the processing

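The largest difference from day 0 of each of the 40 genes was recomputed under every alternative, 1000 values in all. Of these, 997 kept their direction and their side of the threshold and 0 reversed; Atf5, Derl1 and Sel1l were under 1.5-fold at their largest. A gene's largest difference lies far from the threshold, so these values say little about the smaller ones. Of all 240 differences of a gene on a day, 31 were lost or gained as calls without some single array, and 24 of these were losses. Counts of genes moved more. Genes lower on day 1 numbered 2 with equal array medians, with the all-gene median set to 0, with the lowest 25% of genes left out and with the side as a replicate block, and 0 at an adjusted p under 0.01 and at 1.5-fold. With only the 4 arrays compared, Chac1 was called lower on day 1 and Creb3l2 was not. Those lower on day 3 numbered 1 with the all-gene median set to 0, with array weights and with only the 4 arrays compared, and 0 under both stricter thresholds. At 1.5-fold, genes higher and lower were 18 and 2 on day 5, 19 and 2 on day 7, 14 and 4 on day 10, and 14 and 3 on day 14.

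For steps between days, falls from day 7 to day 10 numbered 0 with quantile normalization, 4 without the low genes, and 5 with an intensity trend or with array weights. Falls from day 10 to day 14 numbered 1 with quantile normalization. At an adjusted p under 0.01 the steps after day 3 gave 1 rise to day 5, 0 falls to day 7 or day 10, and 0 rises and 0 falls to day 14. Leaving out each array in turn gave 33 to 35 genes higher on day 1, 19 to 25 on day 14, 0 to 1 lower on day 1, 0 to 2 lower on day 3, 9 to 18 falls from day 3 to day 5, 0 to 2 rises in that step, 0 to 1 falls to day 7, 0 to 2 falls to day 10, and 0 to 2 rises and 0 to 3 falls to day 14.

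Side differences of 2 days correlated at r from -0.19 to 0.35 across genes, with 6 of 21 pairs of days over 0.1, so the sides were not taken as pairing the arrays. The replicate block changed the call of 2 of the 240: Chac1 was called lower on day 1 (adjusted p = 0.023), and Dnajb9 on day 5 was not called (adjusted p = 0.0504). With 2 arrays a day and no detection call, the spread of each difference rests on the variance shared by all days.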

Other observations

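Outside the 40 genes, 12 tested genes have the same ERSE letters in their promoter. On day 1, 2 of them were higher (16.7%, beside 22.7% of the 15563 tested genes with a promoter), and on day 5, 6 were (50%, beside 26.6%). Ero1b rose on day 1 by 0.84 and on day 3 by 0.98, and Alg12, of glycan assembly, by 0.33 and 0.55. Acacb, the acetyl-CoA carboxylase of muscle, fell by 1.26 and 1.64 on these days. On day 14 Spats2l was up by 1.38 (adjusted p = 4.92e-07) and Zfp57 by 1.52 (adjusted p = 3.36e-06). The letters of the ATF4 element occurred in 560 other tested genes, of which 22.7% were higher on day 1, the same share as of all genes with a promoter.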
